A study of Oryza sativa Japonica Group with 8 samples.

Results

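The genes described here encode enzymes of secondary metabolism and related oxidation, reduction and conjugation steps in young rice panicles. They were taken from the genes that the study listed as changed between a dcl3b knockdown line and wild type, by their descriptions. A gene was kept when its description named a cytochrome P450, a terpene synthase, an isoflavone reductase, a dihydroflavonol reductase, a chalcone synthase, a UDP-dependent transferase, a methyltransferase, an oxidoreductase, a dehydrogenase or a transferase family protein. Descriptions that named a transposon or a kinase were not taken, and 4 abundant anther loci listed as lower were left out although 3 of them, a chalcone and stilbene synthase and 2 P450 genes, have descriptions that the rule takes. The counts of lower members, and the levels of the lower P450 and synthase genes, depend on that omission. The rule found 47 of the 1174 listed genes. Of the 47, 35 had one of the more specific descriptions. The other members had the general words oxidoreductase, dehydrogenase or transferase family alone, and some of those belong to primary metabolism.

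Wild type plants and dcl3b knockdown mutant plants of japonica rice were grown in a paddy field, and young panicles were taken before heading. Messenger RNA was sequenced in 3 libraries of each genotype and small RNA in 1 library of each. OsDCL3b is a Dicer-like enzyme that dices double-stranded RNA to give small interfering RNAs, and the comparison asked which transcripts change when its expression is reduced. How the knockdown was made, how many lines were used and whether libraries stem from separate plants is not stated in the sources used here, so p-values measure the spread between these libraries, which may be technical.

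Plant secondary metabolism builds its compounds in steps that these families share out. Terpene synthases and chalcone synthases make carbon skeletons, the latter as the entry to the flavonoids. Cytochrome P450 enzymes are haem monooxygenases that oxidise such skeletons, and also hormones and fatty acids. Dihydroflavonol and isoflavone reductases and other dehydrogenases change the oxidation state. Methyltransferases and UDP-dependent glycosyltransferases then decorate the products, which alters their solubility and activity. In anthers, relatives of the same families supply the wall of the pollen grain: in Arabidopsis, tapetal P450s hydroxylate fatty acids, and chalcone synthase-like and dihydroflavonol reductase-like enzymes extend and reduce them.

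Levels are the FPKM deposited by the authors, which scale fragment counts for sequencing depth and gene length and can be compared between genes. Library depth is unknown for mRNA. The targeted gene, LOC_Os10g34430, had wild type values of 0.97, 0.98 and 0.88 FPKM and knockdown values of 0.39, 0.50 and 0.44 FPKM. Libraries of a genotype differed among themselves. Over all 644 genes listed as higher, knockdown replicate 2 was the lowest knockdown library in 60.1%, and over all 530 listed as lower it was the highest in 67.2%. Knockdown replicate 1 alone carried some genes listed as higher, described with the terpene synthases below. In bulk tissue, fewer cells of a type and less RNA per cell cannot be told apart.

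Of the 47 genes, 38 were listed as higher and 9 as lower in the knockdown, or 80.9% and 19.1%. Over all listed genes the shares were 54.9% higher and 45.1% lower, and over the 692 listed genes with a functional description outside transposons they were 47.4% and 52.6%. Every gene was listed for passing the authors' thresholds, a log2 change of 1 or more in size at an adjusted p up to 0.05, so these counts describe the selection and carry no test. The adjusted p-values in the authors' deposited table correspond to 34271 tested genes, of which 3.43% were listed, 1.88% as higher and 1.55% as lower. How many untested or unlisted genes share these descriptions was not analysed here.

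Levels differed by direction among the members, as they did over all listed genes. The genes listed as higher had a median of 0.333 FPKM in wild type and 1.42 FPKM in the knockdown, and 28 of the 38 were below 1 FPKM in wild type. The genes listed as lower had medians of 4.71 and 2.02 FPKM, and 4 of the 9 were above 30 FPKM in wild type. Over all listed genes the wild type medians were 0.108 FPKM for those higher, with 78.3% below 1 FPKM, and 1.83 FPKM for those lower, with 11.3% above 30 FPKM. Over the listed genes with a functional description outside transposons, the wild type medians were 0.387 FPKM for those higher and 2.42 FPKM for those lower. Going by the authors' deposited table, the median log2 change came to 1.85 for the 37 higher members that were above 0 in both genotypes. It was 2.04 over the 511 such genes of the whole list, and 1.67 over the 307 with a functional description outside transposons. For the lower members it was -1.47, against -1.44 over 528 genes of the whole list and -1.41 over 362 described ones outside transposons.

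**Figure D1:**
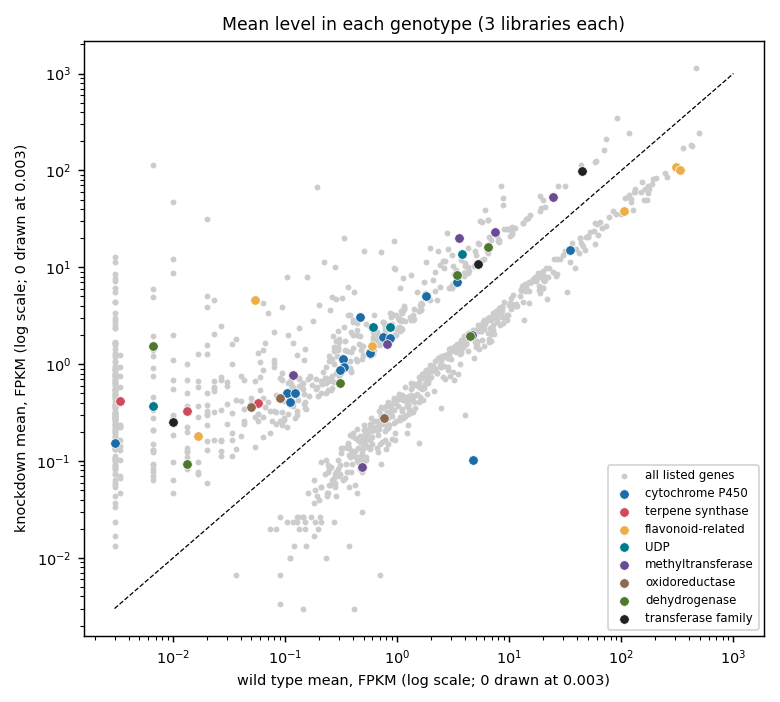
Mean level of each listed gene in wild type (x axis, FPKM, log scale) against the knockdown (y axis, FPKM, log scale), 3 libraries each, with all 1174 listed genes in grey and the 47 members coloured by class. The dashed line marks equal levels. Most members lie above the line at low levels, and the 3 flavonoid-related members at the upper right, between 105 and 336 FPKM in wild type, lie below it.

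An absolute log2 change of 2 or more stood in the authors' deposited table for 16 of the 38, against 61.5% of all genes listed as higher, and for 2 of the 9, against 17% of all genes listed as lower. An adjusted p up to 0.01 stood there for 27 of the 38 and 8 of the 9, against 73.6% and 61.9%.

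All 3 knockdown values lay above all 3 wild type values in 27 of the 38 genes listed as higher (71.1%). The share was 84.6% over all genes listed as higher, and 74.1% over the 328 with a functional description outside transposons. The knockdown values all lay below in 8 of the 9 genes listed as lower, against 89.1% of all genes listed as lower. Knockdown replicate 2 was the lowest knockdown library in 31 of the 38, against 60.1% of all genes listed as higher and 245 of those 328. Wild type replicate 3 was the lowest wild type library in 24 of the 38, against 41.5% and 193 of the 328. Without knockdown replicate 2 the groups were apart in 33 of the 38. Leaving out a library can only keep or raise this count, and its share over all genes listed as higher was not counted.

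**Figure D2:**
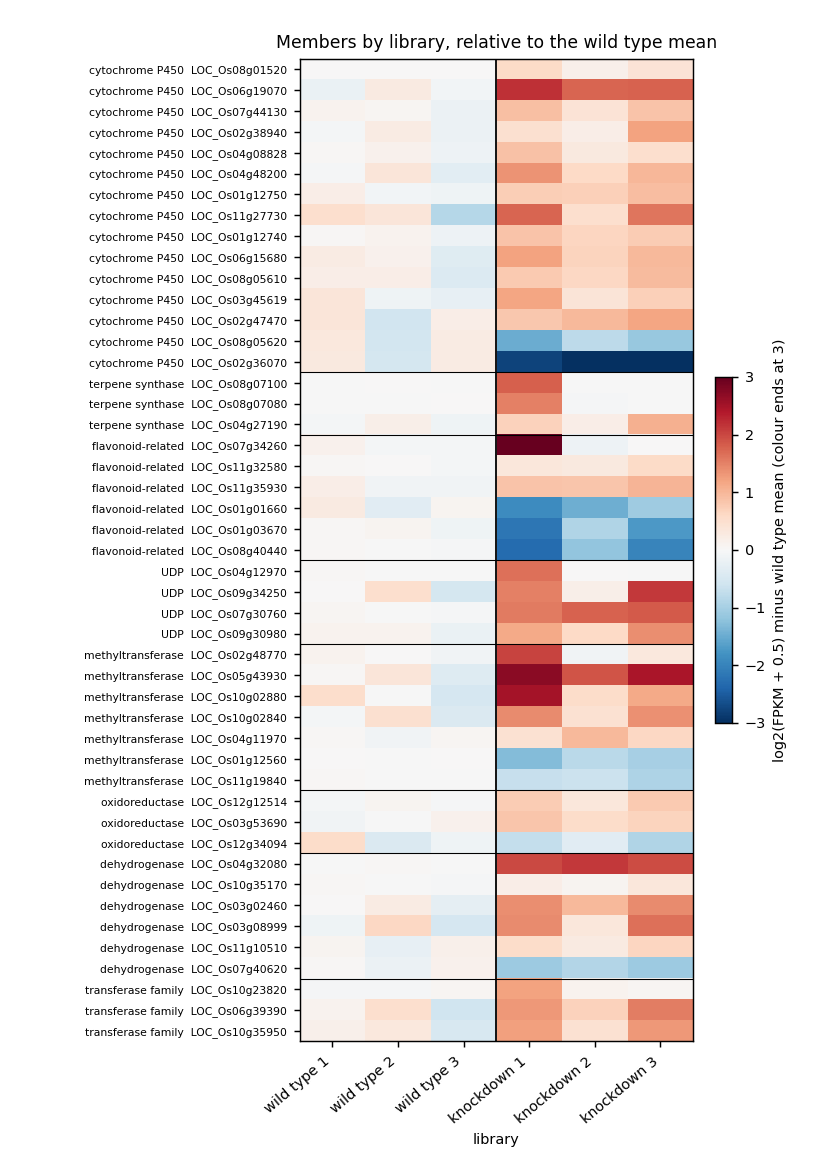
Level of the 47 members (rows, grouped by class) in each of the 6 libraries (columns), as log2(FPKM + 0.5) minus the mean of the 3 wild type libraries, with red above and blue below that mean. Colours are paler in knockdown replicate 2 than in the other 2 knockdown libraries for most rows, and several rows are red in knockdown replicate 1 alone.

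Cytochrome P450 genes were the largest class, with 13 higher and 2 lower. The 2 P450 genes left out by the rule were also lower, LOC_Os03g07250 at 423 ± 19.3 against 180 ± 69.2 FPKM and LOC_Os08g03682 at 256 ± 13.6 against 85.6 ± 39.9 FPKM. The 13 higher ones stayed modest in level, from a median of 0.337 FPKM in wild type to 1.14 FPKM in the knockdown, and none reached 10 FPKM. In 11 of the 13 the groups were apart, and in 12 knockdown replicate 2 was the lowest knockdown library.

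LOC_Os06g19070 had the largest fold among the P450 genes listed as higher that reached 1 FPKM. It had wild type values of 0.33, 0.66 and 0.41 FPKM and knockdown values of 3.84, 2.70 and 2.75 FPKM, or 0.467 ± 0.172 against 3.10 ± 0.644 FPKM (SD, n = 3). The lowest knockdown library stood well above the highest wild type library, and the authors' deposited table gave a log2 change of 2.70 with an adjusted p of 2.47e-17. LOC_Os04g48200 rose from 0.330 ± 0.197 to 1.14 ± 0.420 FPKM, with knockdown replicate 2, at 0.73 FPKM, closest to the highest wild type library at 0.54 FPKM. LOC_Os11g27730 had wild type values of 2.5, 2.23 and 0.68 FPKM and knockdown values of 6.59, 2.5 and 5.94 FPKM. Its knockdown replicate 2 equalled wild type replicate 1, so the groups touched.

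LOC_Os02g47470 was the most abundant of the P450 genes that rose, with wild type values of 4.36, 2.02 and 3.81 FPKM and knockdown values of 6.11, 6.83 and 8.01 FPKM. In the authors' deposited table its log2 change, 1.04, was among those nearest the threshold. LOC_Os06g15680, described as a P450 of the 71A6 type, rose from 0.747 ± 0.263 to 1.90 ± 0.430 FPKM. LOC_Os07g44130, described as the 72A1 type, rose from 0.103 ± 0.0643 to 0.503 ± 0.178 FPKM. P450s of the 71 clan act widely in specialised metabolism of plants. LOC_Os08g01520 was listed at 0 throughout wild type and had knockdown values of 0.24, 0.06 and 0.16 FPKM. LOC_Os02g38940 stood nearest the threshold on significance, with an adjusted p of 0.0496 in the authors' deposited table. It had wild type values of 0.09, 0.23 and 0.05 FPKM and knockdown values of 0.37, 0.21 and 0.94 FPKM, and the groups overlapped.

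The deepest fall of the 47 genes was in a P450 gene, LOC_Os02g36070. It had wild type values of 5.66, 2.99 and 5.47 FPKM and knockdown values of 0.23, 0.02 and 0.06 FPKM. Every knockdown library was near 0, and the authors' deposited table gave a log2 change of -5.39 with an adjusted p of 2.53e-33. Here replicate 2 was the lowest knockdown library, unlike in the other 8 genes listed as lower. The stretch of chromosome 2 around this locus, from LOC_Os02g35990 to LOC_Os02g36290, is known to hold a cluster of rice genes for diterpenoid defence compounds. LOC_Os02g36070 was the 1 listed gene in that stretch. A second such stretch on chromosome 4, from LOC_Os04g09870 to LOC_Os04g10200, held 0 listed genes.

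A pair of P450 genes that follow each other in locus number were listed in opposite directions. LOC_Os08g05620 had wild type values of 41.5, 22.6 and 39.6 FPKM and knockdown values of 11.5, 19.0 and 14.9 FPKM, a log2 change of -1.19 in the authors' deposited table (adjusted p = 8.85e-06). LOC_Os08g05610 had wild type values of 0.70, 0.71 and 0.29 FPKM and knockdown values of 1.30, 1.1 and 1.51 FPKM, a log2 change of 1.19 (adjusted p = 0.0196 in the authors' deposited table). In both genes the groups were apart. A second adjoining pair, LOC_Os01g12740 and LOC_Os01g12750, rose together. LOC_Os01g12740 went from 0.310 ± 0.0721 to 0.863 ± 0.10 FPKM and LOC_Os01g12750 from 0.337 ± 0.108 to 0.940 ± 0.113 FPKM. How reads were divided between similar neighbouring copies is not stated, so single values within such pairs are uncertain.

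In the flavonoid-related class 3 reductases were abundant and fell, and the 3 chalcone synthases that the rule kept were scarce in wild type and were listed as higher. This split rests on the rule, which left out 2 abundant synthases that fell. LOC_Os07g22850, with the chalcone and stilbene synthase description, went from 175 ± 3.82 to 63.7 ± 33.6 FPKM, and the stilbene synthase LOC_Os10g34360 from 491 ± 62.6 to 244 ± 82.7 FPKM. LOC_Os08g40440, described as a dihydroflavonol-4-reductase, had wild type values of 347, 335 and 326 FPKM and knockdown values of 67.3, 148 and 84.8 FPKM. The second dihydroflavonol-4-reductase, LOC_Os01g03670, had wild type values of 318, 330 and 282 FPKM and knockdown values of 68.4, 166 and 93.8 FPKM. Enzymes with this description reduce dihydroflavonols on the way to anthocyanins, and relatives in the Arabidopsis tapetum reduce polyketides for the pollen wall. In both genes wild type was tight while the knockdown libraries spread more than 2-fold, with replicate 2 the highest. The authors' deposited table gave log2 changes of -1.75 and -1.5, with adjusted p-values of 1.05e-12 and 5.53e-08.

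The isoflavone reductase gene LOC_Os01g01660 fell from 124.8, 81.2 and 108.9 FPKM in wild type to 27.6, 37.0 and 49.1 FPKM in the knockdown. Proteins with this description are NADPH-dependent reductases of phenolic compounds. The groups were apart, and here knockdown replicate 3 was the highest. These 3 reductases, together with the P450 gene LOC_Os08g05620, were the 4 lower genes above 30 FPKM in wild type.

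Some genes of the anther and its tapetum, the cell layer that feeds the pollen, were listed as lower too. Over 10 anther and tapetum loci that include the 4 left out by the rule, all 10 were listed as lower and were apart between genotypes. Of all listed genes, 45.1% were lower. Over all genes listed as lower, 89.1% were apart. None of the 10 was at 0 in any library. Their summed level was 1806, 2048 and 1852 FPKM for wild type and 537.5, 1174 and 765 FPKM for the knockdown. Among the knockdown libraries, replicate 2 was the highest in all 10 loci, against 67.2% of all genes listed as lower. It was the highest in both dihydroflavonol-4-reductases but not in the isoflavone reductase. These loci were chosen with their values known, so their shared direction and library order are no result. Their part in the fall of the reductases was not tested.

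**Figure D3:**
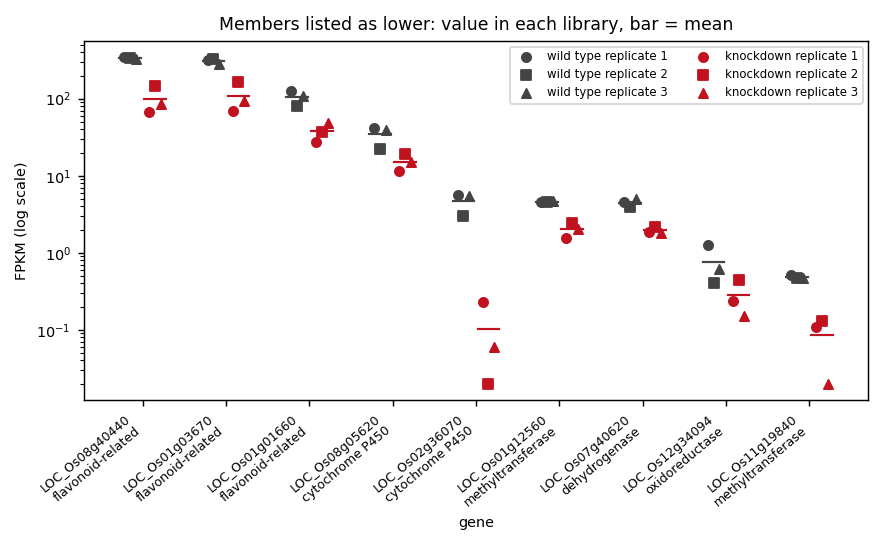
FPKM (y axis, log scale) of the 9 members listed as lower, ordered by wild type level, with 3 wild type libraries in grey, 3 knockdown libraries in red, a symbol per replicate number and a bar at each mean. LOC_Os02g36070 drops to between 0.02 and 0.23 FPKM in the knockdown, and LOC_Os12g34094 is the gene whose groups overlap.

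The 3 chalcone synthases behaved differently from one another. LOC_Os11g35930 rose in every knockdown library, from 0.75, 0.51 and 0.51 FPKM in wild type to 1.46, 1.42 and 1.71 FPKM. LOC_Os11g32580 was low throughout, with wild type values of 0.03, 0.02 and 0 FPKM and knockdown values of 0.15, 0.13 and 0.27 FPKM, with groups apart. LOC_Os07g34260, described as a chalcone and stilbene synthase, had wild type values of 0.10, 0.03 and 0.03 FPKM and knockdown values of 13.7, 0 and 0.06 FPKM. Its listing rested on knockdown replicate 1, since the other knockdown libraries lay within the wild type range or below it.

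That pattern recurred. In 6 of the 38 genes listed as higher, knockdown replicate 1 held at least 80% of the FPKM summed over the 3 knockdown libraries, from 85.4% to 100%. Besides LOC_Os07g34260 they were 2 terpene synthases, a glycosyltransferase, a carboxyl methyltransferase and a transferase family gene. The next highest share of any single knockdown library among the 38 was 61.8%. The limit was chosen after the values were seen, and limits of 70% and 90% gave 6 and 4 genes. None of the 6 had groups apart, whereas 27 of the other 32 did. Picking genes by 1 dominant library makes such overlap likely, so this contrast is no separate result.

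The terpene synthases LOC_Os08g07080 and LOC_Os08g07100 stand near each other in locus number and shared this pattern. LOC_Os08g07080 had wild type values of 0.01, 0.01 and 0.02 FPKM and knockdown values of 0.97, 0 and 0.01 FPKM. LOC_Os08g07100 had wild type values of 0, 0.01 and 0 FPKM and knockdown values of 1.24, 0 and 0 FPKM. Both were at or near 0 in 5 of the 6 libraries, so their log2 changes of 4.55 and 6.62 in the authors' deposited table describe 1 library. The third terpene synthase, LOC_Os04g27190, had wild type values of 0.03, 0.13 and 0.01 FPKM and knockdown values of 0.39, 0.14 and 0.67 FPKM. Its groups were apart by the width of the rounding, 0.14 against 0.13 FPKM.

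The other genes of the pattern were also close to silent outside knockdown replicate 1. The glycosyltransferase gene LOC_Os04g12970 had wild type values of 0.02, 0 and 0 FPKM and knockdown values of 1.09, 0.01 and 0 FPKM. LOC_Os02g48770, a SAM-dependent carboxyl methyltransferase of a kind that makes methyl esters of plant acids, had wild type values of 0.16, 0.12 and 0.07 FPKM and knockdown values of 1.99, 0.07 and 0.27 FPKM. LOC_Os10g23820, a transferase family gene, had wild type values of 0, 0 and 0.03 FPKM and knockdown values of 0.67, 0.05 and 0.03 FPKM. In the authors' deposited table the adjusted p-values of the 6 ran from 0.00812 to 0.0413.

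Over all 644 genes listed as higher, 15 (2.33%) met the same limit for knockdown replicate 1, 0 for replicate 2 and 5 for replicate 3. The 6 genes here were 40% of those 15 and 15.8% of the 38. Only 2 of the 15 were undescribed, so the share is larger than 2.33% over the 328 with a functional description outside transposons. The remaining 9 of the 15 were a lipoxygenase (LOC_Os03g52860), a peroxidase precursor (LOC_Os04g59200), a thionin-like peptide (LOC_Os07g24830), a pathogenesis-related Bet v I protein (LOC_Os12g36850), a protein described as tasselseed-2 (LOC_Os07g46920), a late embryogenesis abundant protein (LOC_Os01g21250), an indole-3-acetate glucosyltransferase (LOC_Os04g12720) and 2 undescribed proteins (LOC_Os09g09210 and LOC_Os03g61490). What set that library apart was not tested.

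**Figure D4:**
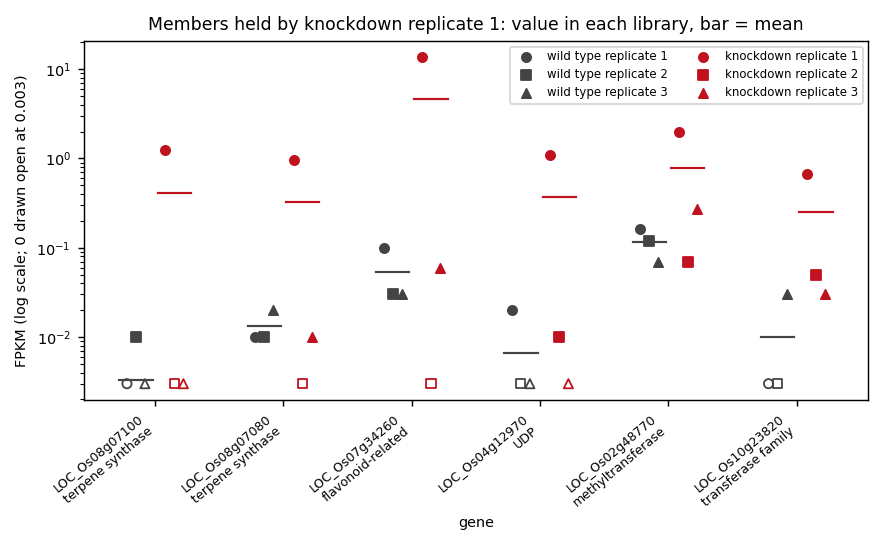
FPKM (y axis, log scale, with 0 drawn as an open symbol at 0.003) of the 6 members in which knockdown replicate 1 held at least 80% of the knockdown sum, with wild type in grey, knockdown in red, a symbol per replicate number and a bar at each mean. The red circles of replicate 1 stand between 0.67 and 13.7 FPKM, and the other knockdown values lie at or below 0.27 FPKM.

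All 4 UDP-dependent transferases that the rule took were listed as higher. These enzymes attach sugars to small molecules. LOC_Os07g30760 was the steadiest, with wild type values of 4.0, 3.73 and 3.67 FPKM and knockdown values of 12.1, 14.2 and 14.9 FPKM. The libraries of each genotype lay close together, and the authors' deposited table gave a log2 change of 1.85 with an adjusted p of 3.63e-26. LOC_Os09g30980 rose from 0.870 ± 0.165 to 2.39 ± 0.783 FPKM with groups apart. LOC_Os09g34250 had wild type values of 0.57, 1.0 and 0.24 FPKM and knockdown values of 2.53, 0.70 and 4.07 FPKM, where replicate 2 fell inside the wild type range. LOC_Os04g12970 is the gene held by knockdown replicate 1. Most listed glucosyltransferases whose descriptions lack the word UDP were higher too. Of those described as anthocyanidin 5,3-O-glucosyltransferases, LOC_Os07g32620 rose from 13.4 ± 2.06 to 28.6 ± 3.44 FPKM. LOC_Os05g45090, the only lower gene among the glucosyltransferases without the word UDP, fell from 0.277 ± 0.0777 to 0.06 ± 0.03 FPKM.

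Among 7 methyltransferases, 5 were listed as higher and 2 as lower. O-methyltransferases add methyl groups to phenolic hydroxyls. LOC_Os05g43930 had wild type values of 3.55, 4.57 and 2.51 FPKM and knockdown values of 25.4, 14.1 and 21.1 FPKM. It had the largest fold of the class among genes at or above 1 FPKM, with a log2 change of 2.5 and an adjusted p of 2.52e-22 in the authors' deposited table. LOC_Os10g02840 had wild type values of 22.9, 33.6 and 17.7 FPKM and knockdown values of 64.7, 33.1 and 62.5 FPKM. Its neighbour in locus number, LOC_Os10g02880, had wild type values of 10.5, 6.98 and 4.84 FPKM and knockdown values of 42.5, 10.6 and 16.3 FPKM. In both genes knockdown replicate 2 met the highest wild type library: it lay just under it for LOC_Os10g02840 and just above it for LOC_Os10g02880. LOC_Os04g11970 stood at the fold threshold, with 0.810 ± 0.0872 against 1.61 ± 0.392 FPKM and a log2 change of 1.0 in the authors' deposited table.

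The O-methyltransferase LOC_Os11g19840 fell, from 0.51, 0.47 and 0.47 FPKM in wild type to 0.11, 0.13 and 0.02 FPKM. Its log2 change in the authors' deposited table was -2.33 with an adjusted p of 9.21e-06, the larger of the class in that direction. LOC_Os01g12560 fell from 4.61 ± 0.0702 to 2.02 ± 0.441 FPKM. It is described as a 3-methyl-2-oxobutanoate hydroxymethyltransferase, an enzyme of pantothenate synthesis, and so matched the rule by its name without belonging to secondary metabolism.

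Dehydrogenases numbered 5 higher and 1 lower. LOC_Os04g32080, described as an 11-beta-hydroxysteroid dehydrogenase after the mammalian enzyme, had wild type values of 0, 0.02 and 0 FPKM and knockdown values of 1.5, 1.7 and 1.46 FPKM. It was silent or nearly so in every wild type library and even across the knockdown, and the authors' deposited table gave a log2 change of 7.27 with an adjusted p of 1.40e-33. LOC_Os03g02460, described as a retinol dehydrogenase, had wild type values of 6.49, 7.64 and 5.25 FPKM and knockdown values of 17.7, 13.1 and 18.0 FPKM. LOC_Os03g08999 had wild type values of 2.91, 5.23 and 2.12 FPKM and knockdown values of 9.49, 4.19 and 11.1 FPKM, where replicate 2 lay below wild type replicate 2. LOC_Os11g10510 went from 0.310 ± 0.115 to 0.637 ± 0.15 FPKM and LOC_Os10g35170, a semialdehyde dehydrogenase, from 0.0133 ± 0.0153 to 0.0933 ± 0.0551 FPKM. LOC_Os07g40620, a saccharopine dehydrogenase of lysine metabolism, fell from 4.48 ± 0.544 to 1.96 ± 0.202 FPKM with groups apart.

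Of 3 genes described as oxidoreductases, LOC_Os12g12514 rose from 0.05 ± 0.0265 to 0.36 ± 0.139 FPKM and LOC_Os03g53690 from 0.09 ± 0.0458 to 0.447 ± 0.0961 FPKM. The third, LOC_Os12g34094, is described as chain 4 of the NADH-ubiquinone oxidoreductase, a subunit of the mitochondrial respiratory chain. It had wild type values of 1.27, 0.40 and 0.61 FPKM and knockdown values of 0.24, 0.45 and 0.15 FPKM, the 1 lower gene whose groups overlapped, with an adjusted p of 0.0239 in the authors' deposited table. All 3 transferase family genes were listed as higher. LOC_Os06g39390 was the most abundant of the 38, with wild type values of 45.4, 60.2 and 27.96 FPKM and knockdown values of 104.5, 69.4 and 124 FPKM. LOC_Os10g35950 rose from 5.21 ± 1.53 to 10.9 ± 3.34 FPKM, and in both genes replicate 2 was the lowest knockdown library but above every wild type library.

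Position was described by locus number, which gives order along a chromosome and not distance. Of the 47 genes, 22 (46.8%) had another listed gene within 100 locus numbers, against 42.9% of all listed genes, a share near the background. In 8 genes that neighbour was another member, forming the 4 pairs given above: the P450 pairs of chromosomes 1 and 8, the terpene synthases and the O-methyltransferases. The 2 O-methyltransferases pointed the same way, as did the P450 pair of chromosome 1. The terpene synthases did too, but both rose in knockdown replicate 1 alone. No background share was counted for neighbours of the same set. Listed transposon genes lay within 100 locus numbers of 6 members (12.8%), against 8.01% of all listed genes. The retinol dehydrogenase gene LOC_Os03g02460 adjoins LOC_Os03g02470, an undescribed gene with 0, 0.02 and 0 FPKM for wild type and 110.4, 116.6 and 112.5 FPKM for the knockdown. The glycosyltransferase LOC_Os04g12970 lies near the LINE retrotransposon gene LOC_Os04g13000, which was listed at 0 throughout wild type, with knockdown values of 7.09, 8.19 and 6.59 FPKM. Unlike the glycosyltransferase, that neighbour was present in all 3 knockdown libraries.

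Further listed enzymes and transporters were counted from 5 keyword lists over genes that the rule did not take. The keywords match words in descriptions, so the lists also hold genes of other pathways, such as a ferredoxin-nitrite reductase and an N-acetyltransferase. These 5 lists held 87 genes, of which 7 stood in more than 1 list. For comparison, 54.9% of all listed genes were higher, and 47.4% of those with a functional description outside transposons. The counts carry no test. Phenylpropanoid genes numbered 10 higher (71.4%) and 4 lower. Phenylalanine ammonia-lyase, the entry enzyme of the pathway, was represented by LOC_Os02g41680, which rose from 10.6 ± 2.20 to 25.8 ± 9.31 FPKM. The AMP-binding gene LOC_Os08g14760 rose from 1.63 ± 0.253 to 4.24 ± 1.18 FPKM. The other AMP-binding genes of the list fell. LOC_Os04g24530 went from 358 ± 23.2 to 171 ± 65.8 FPKM, and LOC_Os10g42800 from 0.463 ± 0.146 to 0.183 ± 0.0473 FPKM. The dirigent gene LOC_Os07g44250 rose from 1.97 ± 0.106 to 15.9 ± 6.93 FPKM, where dirigent proteins guide the coupling of phenolic radicals. The 4 lower genes of this list included 3 of the anther and tapetum loci.

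Oxygenases and redox partners numbered 23 higher (74.2%) and 8 lower, and glycosidases 14 higher (77.8%) and 4 lower. Of these 18 glycosidases 6 are described as beta-glucosidases, and the other 12 as glucan endo-glucosidases or glycosyl hydrolases of various families. Other transferases numbered 15 higher (68.2%) and 7 lower. Conjugation and transport genes numbered 5 higher (55.6%) and 4 lower, a share near that of all listed genes. Of these, 1 lower gene, a chorismate mutase, matched the transporter keyword by spelling alone. The glutathione S-transferase gene LOC_Os10g38140 rose from 6.02 ± 2.33 to 39.2 ± 12.1 FPKM. LOC_Os03g04250 was the only glutathione S-transferase gene of the conjugation and transport list that was lower. It stood at 6.62 ± 3.54 against 1.68 ± 1.09 FPKM, and its groups overlapped. Glutathione S-transferases conjugate reactive compounds. Among genes listed as higher, replicate 2 was the lowest knockdown library in 9 of 10 phenylpropanoid and 5 of 5 conjugation and transport genes. It was the lowest in 19 of 23 redox, 10 of 14 glycosidase and 14 of 15 transferase genes. This compares with 60.1% of all genes listed as higher, and with 245 of the 328 that have a functional description outside transposons.

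Small RNA windows of 500 bases were compared with these genes, since OsDCL3b makes small RNAs. None of the 124 windows that the authors listed named any of the 47 genes (0 windows), and they named 7 of all 1174 listed genes (0.596%), so the count of 0 is near the background. The listed windows did touch other genes whose descriptions match the keywords of the rule. None of them was listed as changed in mRNA, where 3.43% of all tested genes were listed. A 24-nt window at the P450 gene LOC_Os02g09320, on chromosome 2 from 4797500 to 4797999, had 118 reads in wild type and 0 in the knockdown. The upper end of the exact 95% interval of the ratio of knockdown to wild type was 0.0347. A window at the P450 gene LOC_Os02g38290 had 85 reads in wild type and 1 in the knockdown, a ratio of 0.0129 (0.000322 to 0.0736). A window shared by the P450 gene LOC_Os10g21060 and a retrotransposon gene had 139 and 1 reads, a ratio of 0.00786 (0.000198 to 0.0445). A window at the glycosyltransferase gene LOC_Os06g16000 went the other way, with 14 reads in wild type and 148 in the knockdown, a ratio of 11.5 (6.67 to 21.6). A window shared by LOC_Os03g30934, described as a UDP-N-acetylglucosamine transferase subunit, and an F-box gene had 132 and 3 reads, a ratio of 0.0248 (0.00505 to 0.0741). Each genotype had 1 small RNA library, so these differences have no replicate check and the intervals cover counting error only. Of these 5 windows 4 were lower in the knockdown, against 87 of all 113 24-nt windows (77%). The build of these coordinates is not stated in the sources used here.

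All 1174 listed genes were fitted again with limma on log2(FPKM + 0.5), with p-values adjusted by Benjamini-Hochberg, to see how far single libraries carried the listings. Since the listing used these values, passing it is no independent support. Of the 38 higher genes 26 passed an adjusted p of 0.05, against 80% of all genes listed as higher, and 8 of the 9 lower genes passed, against 90.9%. The 12 higher genes that did not pass included all 6 held by knockdown replicate 1, with limma adjusted p-values from 0.218 to 0.312. Those 6 were picked for a large spread between knockdown libraries, which made failing likely in advance. The limma log2 difference was 2.02 ± 0.0909 (SE) for LOC_Os04g32080 with an adjusted p of 4.04e-05, the smallest of the 47, and 1.72 ± 0.111 for LOC_Os07g30760 with an adjusted p of 0.000164. For LOC_Os02g36070 it was -3.08 ± 0.268 with an adjusted p of 0.000531. On this scale the change of low genes is understated.

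Of the 47 genes, 20 passed with all libraries and under every alternative setting that kept them, 13 of them higher and 7 lower. The same count was not made over all listed genes, so whether these shares differ from the background is unknown. The lower ones were the 3 abundant reductases, LOC_Os02g36070, LOC_Os01g12560, LOC_Os11g19840 and LOC_Os07g40620. Those that rose included LOC_Os06g19070, LOC_Os06g15680, LOC_Os11g35930, LOC_Os07g30760, LOC_Os05g43930 and LOC_Os04g32080, and both P450 genes of the chromosome 1 pair. Without wild type replicate 1, wild type replicate 3, knockdown replicate 1 or knockdown replicate 3, the higher genes that passed fell from 26 to 17, 16, 15 and 15. Without knockdown replicate 2 they numbered 32. All genes listed as higher moved likewise, from 80% past to 53%, 51.2%, 55.7% and 56.1%, and to 87.6% without knockdown replicate 2. An exact permutation test of 3 against 3 libraries cannot go below p = 0.10 for a single gene.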

How the data were processed

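The authors deposited tables of higher and lower genes with FPKM for every library (rounded to 2 decimals), per the file headers. The same deposited tables give the authors' log2 fold change, p-value and adjusted p-value of knockdown over wild type. The deposited small RNA signal counts reads of each 500-base window per 10000000 library reads (RPTM). The deposited ratio and p-values of windows were not used. The tools edgeR, Bowtie 1.1.2 and TopHat2 2.1.0 appear in the submitters' processing notes without a role. Genome build, annotation and filters: not given in the sources used here.

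Members and lists were chosen with earlier results of these data known. The number of genes tested was taken from adjusted p over p times rank, which gave the same whole number for 13 top genes. Window reads came from the step of the signal, 1.24 and 1.36 RPTM, with all nonzero values whole multiples to within 0.01 RPTM (8037518 and 7358371 library reads). Their ratios have exact (Clopper-Pearson) 95% intervals. The re-test used limma 3.58.1 under R 4.3.3 and was tested on simulated data. Libraries sharing a replicate number did not deviate together over the listed genes, so no block was used in the main fit. This cannot settle whether they are paired. No sequence is shown, since no locus ID of the lists was found in the gene table at hand (0 matches). Named genes were every member of classes of at most 6, and in larger classes those of the largest fold, highest level or nearest the thresholds. Members outside this rule, those held by 1 library and the genes of the keyword lists were named after their values were seen.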

Additional observations from a re-analysis of the deposited data

How the results depend on the processing

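At a size of 2 or more for the log2 change in the authors' deposited table, 16 genes stayed higher and 2 lower. At 1 FPKM or more in the higher genotype, 21 stayed higher, and 16 of those had groups apart. The counts of listed genes moved by less than 1.5 times with an adjusted p up to 0.01, without genes listed at 0, with the narrow keywords, and without the 6 genes held by 1 library (32 higher, chosen after seeing the data). Past the limma re-test, 17 genes were higher with a replicate block (7 lower), against 26 and 8 without it, while over all listed genes 50.2% of those higher and 57.9% of those lower passed with the block, against 80% and 90.9%. Same-numbered libraries had correlations of -0.04, -0.53 and -0.43 over the listed genes, and differently numbered ones ranged from -0.30 to 0.56. These values gave no sign of pairing by number. They cannot settle it, since they come from selected genes and from deviations that sum to 0 within each genotype. Leaving out 1 library at a time gave 15 to 32 higher and 7 to 9 lower genes past the re-test. Over all listed genes 51.2% to 87.6% of those higher and 55.5% to 87.5% of those lower passed. Groups were apart in 27 to 33 higher and 8 to 9 lower genes, counts that leaving out a library cannot reduce. Their shares over all listed genes were not counted. Pseudocounts of 0.1 and 1 FPKM gave 31 and 25 higher genes, against 89.6% and 73.8% of all genes listed as higher. Leaving out the lowest 25% of genes gave 24, against 59.8%. Genes left out of that fit count as not past, so the 24 is not a loss of significance alone.

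Without knockdown replicate 1 the limma log2 difference reversed, to values near 0, for 4 genes. All were among the genes picked because that library held most of their knockdown sum, so a large drop was built in. Over the fits that left out 1 library each, with a pseudocount of 0.5 FPKM, LOC_Os08g07100 ranged from -0.0095 to 0.89, LOC_Os08g07080 from -0.024 to 0.75, LOC_Os07g34260 from -0.062 to 2.35 and LOC_Os04g12970 from -0.0046 to 0.83. Rounding to 2 decimals limits folds of genes below about 0.1 FPKM, and mRNA depth is unknown.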
